A study of Rattus norvegicus with 23 samples.

Results

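The 6 libraries described here, of 23 in the series, came from the empty-vector line of PC12 cells, with 3 libraries taken at 3 d after splitting and 3 taken at 24 h. They are defined by their labels (line and time). The comparison and the 30 lists used below were chosen with earlier results of these data known. PC12 is a line grown from a rat pheochromocytoma, a tumour of the adrenal medulla, and serves as a stand-in for neuroendocrine cells and for neurons. All 6 libraries share 1 background: cells transfected with empty pcDNA3 and kept as stable clones under G418, in F-12K medium on poly-L-lysine, with serum of horse (10%) and of fetal calf (2.5%). The number of clones behind the line, the cell density at either time and any change of medium in between are not given in the labels. The labels also do not say that replicates were separate cultures. The p-values rest on the spread between libraries of a group, estimated over all 23 libraries, and that spread may be technical. A line made in parallel expressed α1ACT, a C-terminal product of the calcium channel gene Cacna1a with 11 glutamines and a 3xFlag tag, and was sampled at the same times. Its 3 libraries of 3 d and 3 of 24 h serve below as a comparison and share no library with the vector line.

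miRNAs are short RNAs that guide Argonaute proteins to messenger RNAs, mainly through pairing of bases 2 to 8, the seed. Each hairpin can give a 5p and a 3p miRNA with different seeds, and many hairpins lie in clusters that are transcribed together. After adherent cells are split, they first attach at low density and then grow toward a fuller culture, and miRNAs of several families are known to vary with growth, density and oxygen in cultured cells.

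The sequences on which the comparison turns are given first, because several of the miRNAs that fell at 3 d share a seed, and because in a few hairpins the arms went opposite ways. They are mature rat miRNAs of RefSeq (assembly GRCr8), 5′ to 3′, with the seed in capitals. The first 9 are miRNAs that were lower at 3 d and their closest seed relatives.
miR-100-5p: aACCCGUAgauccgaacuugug
miR-99b-5p: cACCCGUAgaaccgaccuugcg
miR-125a-5p: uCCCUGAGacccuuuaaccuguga
miR-125b-5p: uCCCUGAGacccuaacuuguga
miR-351-5p: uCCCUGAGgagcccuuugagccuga
miR-450a-5p: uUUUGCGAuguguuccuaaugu
miR-450b-5p: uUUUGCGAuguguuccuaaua
miR-501-3p: aAUGCACCcgggcaaggauuugg
miR-500-3p: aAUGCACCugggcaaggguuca
The next 6 are the abundant miR-375-3p and other miRNAs that were higher at 3 d, with miR-212-3p as the seed relative of miR-132-3p.
miR-375-3p: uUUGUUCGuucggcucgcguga
miR-92a-3p: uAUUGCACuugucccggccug
miR-103-3p: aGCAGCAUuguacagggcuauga
miR-107-3p: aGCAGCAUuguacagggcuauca
miR-132-3p: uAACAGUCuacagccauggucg
miR-212-3p: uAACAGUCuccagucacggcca
The last 4 are the partner arms of hairpins whose arms were called in opposite directions.
miR-125a-3p: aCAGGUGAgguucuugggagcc
miR-99b-3p: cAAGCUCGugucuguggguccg
miR-29b-5p: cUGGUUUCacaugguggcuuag
miR-29b-3p: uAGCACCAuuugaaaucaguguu

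Total miRNA counts of the 6 libraries were 448557, 2784837 and 3849102 at 3 d and 2997128, 2590185 and 1557147 at 24 h. The first library of 3 d is the shallowest of the series: 3 counts in it equal 6.73 CPM, against 0.804 to 1.98 CPM in the other 5. CPM stands for counts scaled to a common library size and adjusted by trimmed mean of M values (TMM), so a value is relative to the other miRNAs of its library, and more of a miRNA and less of the others cannot be told apart. Of 413 named entries 269 passed the filter on low counts and were tested, in 1 fit over all 23 libraries. An entry is said to have risen, fallen or been called where the Benjamini-Hochberg adjusted p of edgeR's quasi-likelihood test was under 0.05, and each ± below is the SE of a log2 fold change (3 d over 24 h, n = 3 each) unless an SD is named.

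At 3 d the vector line had about 4-fold less miR-100-5p and miR-501-3p than at 24 h, and less miR-351-5p and miR-450b-5p, of an X-linked cluster. It had more miR-375-3p, its most abundant miRNA and one of endocrine cells, and more miR-320-3p and miR-92a-3p. Of the 269 entries, 64 (23.8%) were called: 34 rose (12.6%) and 30 fell (11.2%). The split depends on the scaling, since upper-quartile factors gave 22 higher and 46 lower. Most changes were small, with a median log2 fold change of 0.56 among those that rose and -0.68 among those that fell, and 7 rose and 8 fell by at least 2-fold. The libraries of 3 d and 24 h did not overlap for 90 entries (33.5% of all tested), among them 29 of the 34 that rose and 24 of the 30 that fell. Without the shallow library 24 of the 34 and 26 of the 30 were still called.

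**Figure D1:**
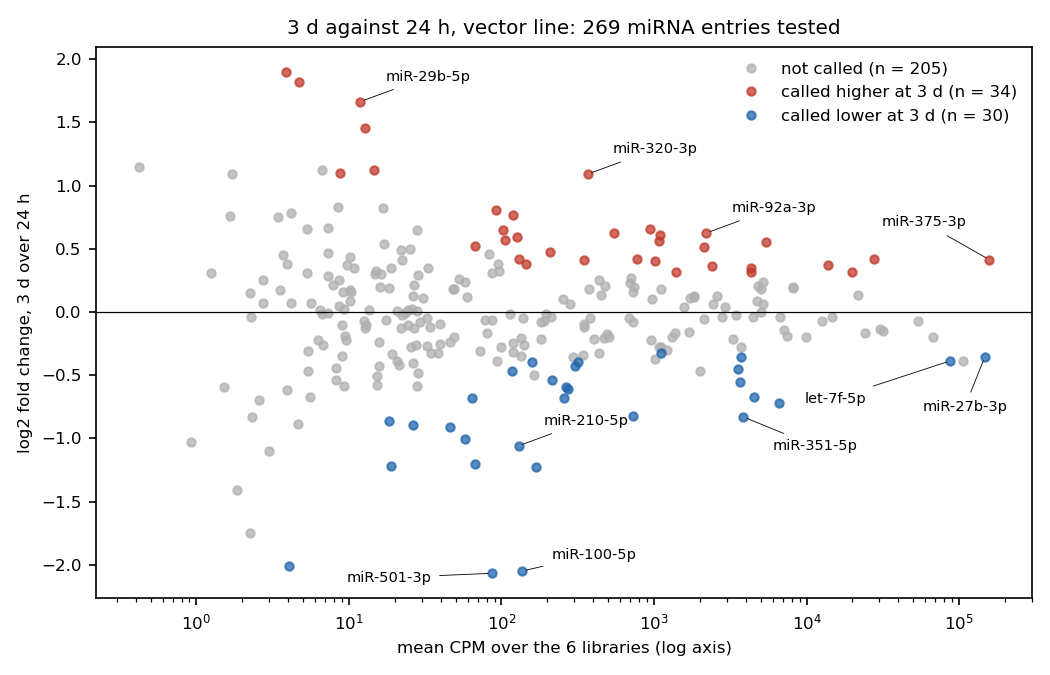
Log2 fold change of each tested miRNA entry, 3 d over 24 h, against its mean CPM over the 6 libraries (log axis). Red points rose and blue points fell at 3 d, and the called miRNAs above 1000 CPM lie within 1 log2 unit of 0.

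The group of miR-99, miR-100 and miR-125 held the largest fall among miRNAs above 100 CPM. Its hairpins lie in conserved clusters with let-7 hairpins, and it is studied for roles in growth and differentiation. miR-100-5p had 62.8, 50.6 and 49.8 CPM at 3 d, against 197, 211 and 247 CPM at 24 h. The lowest library of 24 h was thus about 3 times the highest of 3 d, and the log2 fold change was -2.05 ± 0.236 (adjusted p = 2.56e-06, edgeR's quasi-likelihood test). miR-99b-5p, which carries the same seed ACCCGUA and differs from miR-100-5p at 4 of 22 bases, had 5739, 5412 and 3788 CPM at 3 d, against 7210, 7754 and 9627 CPM at 24 h. It fell by 0.72 ± 0.206 on the log2 scale (adjusted p = 0.0129, edgeR's quasi-likelihood test), and the call was lost when either replicate 2 or replicate 3 of 24 h, or replicate 3 of 3 d, was left out. miR-125a-5p, of the seed CCCUGAG, had 3304, 3664 and 3461 CPM at 3 d, against 5413, 5163 and 6052 CPM at 24 h. Its groups did not overlap either, but its call (-0.67 ± 0.206, adjusted p = 0.0208, edgeR's quasi-likelihood test) was lost whenever any 1 of the 6 libraries was left out. miR-125b-5p, which shares that seed, did not pass the test at -0.46 ± 0.200 (adjusted p = 0.104, edgeR's quasi-likelihood test), with 1888, 1645 and 1548 CPM at 3 d and 2146, 2198 and 2645 CPM at 24 h. Of 8 tested members of the group, 3 fell and 2 rose, against 11.2% lower and 12.6% higher of all entries. The median log2 fold change of the group was -0.57 (-0.27 in the Chimira table), against -0.04 over all 269 entries. The 2 that rose are 3p arms, described with the arms.

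A cluster on the X chromosome of mammals that gives miR-322, miR-503, miR-351, miR-450 and miR-542, and whose first members slow the cell cycle in mouse muscle precursors, held several of the falls. Of its 9 tested members 4 fell and 0 rose, against 11.2% lower of all entries. A negative log2 fold change was found in 8 of 9, against 144 of all 269, and the median was -0.39 (-0.59 without the shallow library). miR-351-5p, which has the seed of miR-125, had 2695, 2795 and 2825 CPM at 3 d, against 4895, 5525 and 4364 CPM at 24 h. The 3 libraries of 3 d lay close together and well under those of 24 h, at a log2 fold change of -0.83 ± 0.107 (adjusted p = 2.56e-06, edgeR's quasi-likelihood test). miR-450b-5p had 26.9, 40.9 and 43.7 CPM at 3 d, against 78.0, 85.5 and 71.8 CPM at 24 h, and fell by 1.00 ± 0.182 on the log2 scale (adjusted p = 0.000238, edgeR's quasi-likelihood test). miR-450a-5p fell less, by 0.39 ± 0.109 on the log2 scale (adjusted p = 0.00856, edgeR's quasi-likelihood test). It differs from miR-450b-5p at 1 of 21 bases, so counts of the pair may be split by the assignment of reads, and in the Chimira table miR-450a-5p was not called. miR-322-3p, the minor arm of its hairpin, had 231, 168 and 198 CPM at 3 d, against 286, 349 and 300 CPM at 24 h, and fell by 0.68 ± 0.124 (adjusted p = 0.000238, edgeR's quasi-likelihood test). Its major arm miR-322-5p (917, 890 and 1127 CPM at 3 d, against 1225, 1206 and 1138 CPM at 24 h) did not pass the test, at -0.28 ± 0.117 (adjusted p = 0.0896, edgeR's quasi-likelihood test). miR-503-5p, at no more than 8.56 CPM in any of the 6 libraries, did not pass it either.

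A second group of neighbouring hairpins, lies in the chloride transporter gene Clcn5. Of its 7 tested members 4 fell and 0 rose, against 11.2% lower of all entries, with a median log2 fold change of -0.61. miR-501-3p had 33.6, 43.2 and 23.8 CPM at 3 d, against 123, 137 and 161 CPM at 24 h. Every library of 3 d lay far under every library of 24 h, and the log2 fold change was -2.07 ± 0.325 (adjusted p = 0.000146, edgeR's quasi-likelihood test). miR-500-3p has the same seed AUGCACC and differs at 4 of 22 bases, and it had 71.7, 47.6 and 56.5 CPM at 3 d and 51.9, 40.3 and 50.0 CPM at 24 h. These groups overlapped, and the log2 fold change of 0.26 ± 0.194 did not pass the test (adjusted p = 0.365, edgeR's quasi-likelihood test). miR-188-5p fell by 0.61 ± 0.174 (no library of 3 d above 226 CPM and none of 24 h under 298 CPM; adjusted p = 0.0106, edgeR's quasi-likelihood test). miR-362-3p (-0.90) and miR-362-5p (-0.86) fell together, at 40 CPM or less in each library, and the call of miR-362-5p was kept in 9 of 18 other settings. The most abundant member, miR-532-5p, had 861, 973 and 806 CPM at 3 d and 1003, 1149 and 923 CPM at 24 h and did not pass the test.

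Single miRNAs that fell came from several other families. miR-96-5p, of a cluster best known from sensory organs, that of miR-183, miR-96 and miR-182, had 74.0, 109 and 112 CPM at 3 d, against 235, 230 and 254 CPM at 24 h (log2 fold change -1.23 ± 0.246, adjusted p = 0.000942, edgeR's quasi-likelihood test). Its cluster partners miR-183-5p (-0.28) and miR-182 (-0.15) did not pass the test, so that 1 of 4 tested members was called, near the 23.8% of all entries. miR-210-5p, the minor arm of a hairpin that is induced by low oxygen, had 98.6, 87.4 and 70.2 CPM at 3 d, against 133, 238 and 149 CPM at 24 h (-1.06 ± 0.206, adjusted p = 0.000461, edgeR's quasi-likelihood test). The major arm, miR-210-3p, by which that response is usually read, had 6100, 5776 and 4990 CPM at 3 d and 4493, 4534 and 5272 CPM at 24 h, and the overlapping groups did not pass the test (0.24 ± 0.131, adjusted p = 0.217, edgeR's quasi-likelihood test). A like split was found for miR-21, a miRNA induced by growth factors. Its minor arm miR-21-3p fell by 1.20 ± 0.273 (26.9, 55.7 and 34.3 CPM at 3 d, against 83.5, 103 and 96.8 CPM at 24 h; adjusted p = 0.00267, edgeR's quasi-likelihood test), and its major arm miR-21-5p, at 2924 to 3165 CPM at 3 d and 3388 to 3588 CPM at 24 h, did not pass the test. miR-192-5p, known as a p53 target in human cells, had 3002, 3154 and 2716 CPM at 3 d, against 4138, 4623 and 4267 CPM at 24 h, and fell by 0.55 ± 0.090 (adjusted p = 0.000101, edgeR's quasi-likelihood test). miR-879-5p fell by 0.82 and miR-24-2-5p by 0.54. miR-877, a mirtron cut out by splicing in place of Drosha, had 31.4, 33.1 and 31.1 CPM at 3 d, against 55.3, 56.1 and 69.1 CPM at 24 h (-0.91 ± 0.233, adjusted p = 0.00504, edgeR's quasi-likelihood test), a call that was lost in the Chimira table. miR-3068-3p (-0.59) and miR-101a-3p (-0.35) also fell, and miR-193a-3p fell at no more than 7.24 CPM in any library, with 0 counts in the shallow library of 3 d; these 3 are named after their values were seen.

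**Figure D2:**
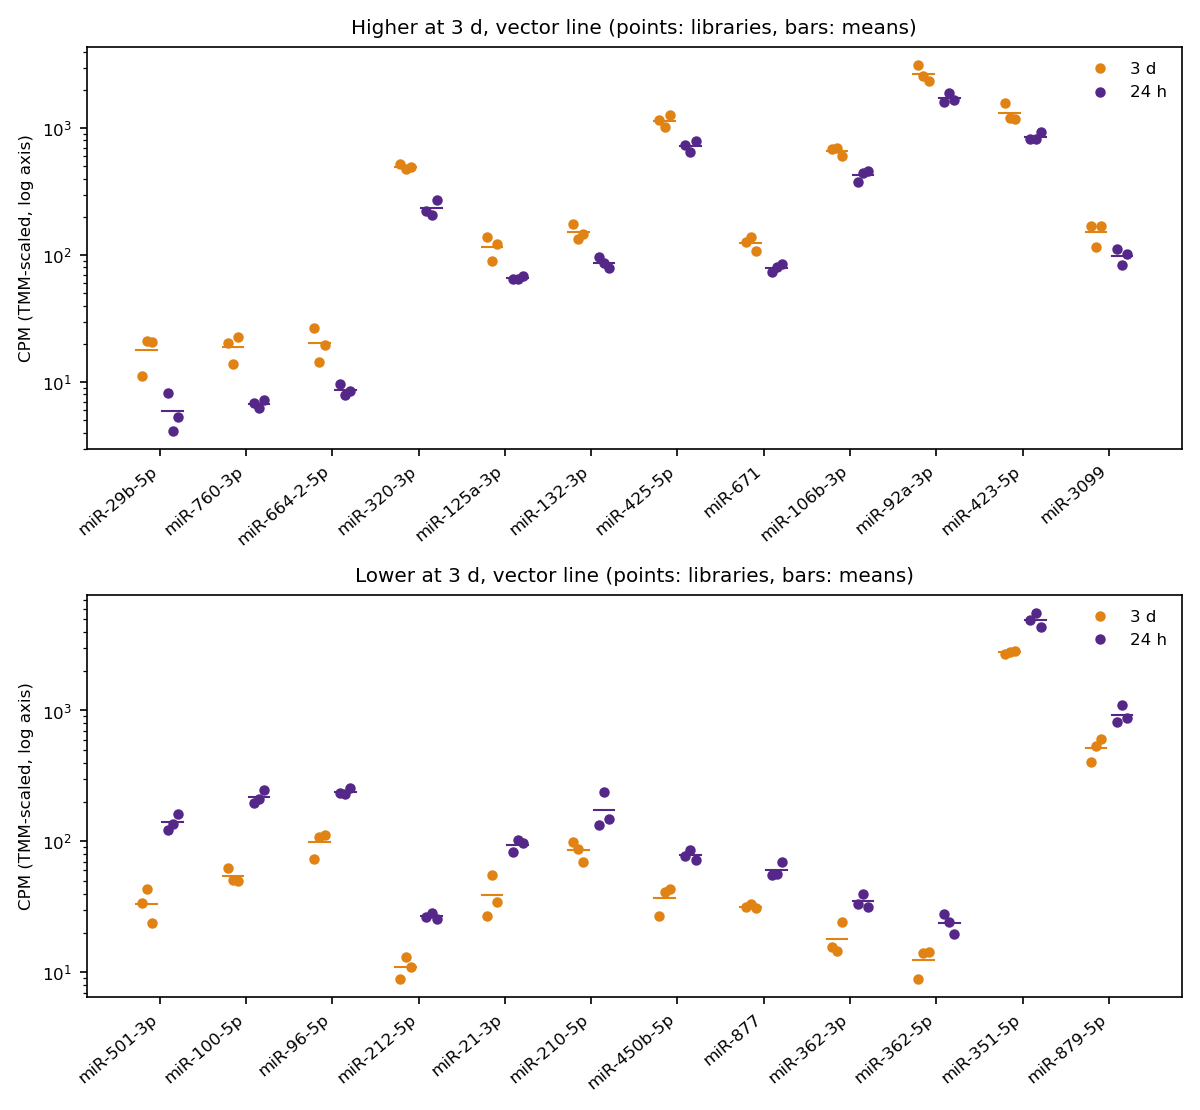
CPM (log axis) in each of the 3 libraries of 3 d (orange) and of 24 h (purple) for the 12 miRNAs with the largest rise and the 12 with the largest fall among those called with a mean of at least 10 CPM. Bars are group means, and the points of miR-100-5p, miR-501-3p and miR-320-3p lie in clearly separate bands.

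Among miRNAs that rose, miR-375-3p moved the most counts. It is enriched in endocrine cells, where it is known from the insulin-secreting beta cell, and here it was the most abundant entry, with 173098, 178710 and 190561 CPM at 3 d, against 131034, 142473 and 133622 CPM at 24 h. The groups did not overlap, and the log2 fold change of 0.41 ± 0.090 (adjusted p = 0.00112, edgeR's quasi-likelihood test) was called in 18 of 18 other settings. The largest fold among entries above 100 CPM was that of miR-320-3p, whose hairpin is made without Drosha in mouse cells. It had 474 to 527 CPM in the 3 libraries of 3 d, against 208 to 270 CPM in those of 24 h, a log2 fold change of 1.09 ± 0.177 (adjusted p = 0.000136, edgeR's quasi-likelihood test). Each library of 3 d was thus above each library of 24 h by more than 1.5-fold.

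The miR-17-92 cluster and its paralogues, which are induced by MYC and tied to proliferation, had 3 of 17 tested members (17.6%) higher and 0 lower, against 12.6% higher and 11.2% lower of all entries. Their median log2 fold change was 0.19 (0.09 with upper-quartile factors). miR-92a-3p had 3129, 2558 and 2342 CPM at 3 d, against 1621, 1899 and 1670 CPM at 24 h (0.63 ± 0.119, adjusted p = 0.000319, edgeR's quasi-likelihood test). miR-106b-3p had 681, 697 and 604 CPM at 3 d, against 376, 446 and 461 CPM at 24 h (0.63 ± 0.116, adjusted p = 0.000238, edgeR's quasi-likelihood test). The third, miR-17-5p, overlapped between the groups and kept its call in 10 of 18 other settings. The more abundant miR-25-3p (0.20), miR-93-5p (0.18) and miR-106b-5p (0.23) did not pass the test. Of the 4 tested miRNAs with the seed AUUGCAC of miR-92a-3p, 1 rose. miR-16-5p, a repressor of cyclins in human cells, had 35637, 25459 and 33260 CPM at 3 d, against 24064, 19558 and 26950 CPM at 24 h (0.42 ± 0.116, adjusted p = 0.00848, edgeR's quasi-likelihood test). Its groups overlapped, and the call was lost without the shallow library.

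In the cluster of miR-191 and miR-425 both 5p arms rose. miR-425-5p had 1150, 1016 and 1269 CPM at 3 d, against 734, 646 and 799 CPM at 24 h (0.66 ± 0.131, adjusted p = 0.000473, edgeR's quasi-likelihood test). miR-191a-5p had 17152, 15944 and 13878 CPM at 3 d, against 11440, 11518 and 13254 CPM at 24 h (0.38 ± 0.108, adjusted p = 0.0106, edgeR's quasi-likelihood test). The groups did not overlap for either, though the gap was narrow for miR-191a-5p, whose call was lost without the shallow library. miR-378a-3p, from an intron of the Ppargc1b gene in mouse, had 6857, 6254 and 6144 CPM at 3 d, against 4272, 4516 and 4316 CPM at 24 h (0.55 ± 0.099, adjusted p = 0.000234, edgeR's quasi-likelihood test). miR-103-3p (0.31) and miR-107-3p (0.48), which share the seed GCAGCAU and differ at 1 of 23 bases, both rose, so that their counts may be split by read assignment; miR-107-3p was not called in the Chimira table. miR-423-5p (0.61) rose, with 1185 to 1565 CPM at 3 d, against 817 to 928 CPM at 24 h. miR-146b-5p (0.52), of a family tied to inflammation, rose too, with 2307 to 2747 CPM at 3 d, against 1600 to 1837 CPM at 24 h. miR-30d-5p rose by 0.32 ± 0.084, with 22736, 20614 and 22590 CPM at 3 d and 17547, 17362 and 17985 CPM at 24 h (adjusted p = 0.00637, edgeR's quasi-likelihood test). miR-378a-3p, miR-103-3p and miR-107-3p are named after their values were seen.

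Less abundant miRNAs held the larger rises. miR-760-3p had 20.2, 13.8 and 22.5 CPM at 3 d, against 6.87, 6.23 and 7.24 CPM at 24 h (1.46 ± 0.328, adjusted p = 0.00165, edgeR's quasi-likelihood test). miR-664-2-5p rose by 1.12 ± 0.327, with 14.5 to 26.9 CPM at 3 d and 7.89 to 9.62 CPM at 24 h (adjusted p = 0.0117, edgeR's quasi-likelihood test). miR-671 (0.65) and miR-3099 (0.59) rose near 100 CPM. miR-7a-5p, with miR-375 the other miRNA of the endocrine list, and miR-185-5p were called higher at no more than 12.6 CPM, but both had 0 counts in the shallow library of 3 d. A count of 0 there allows up to 6.73 CPM, and each call was lost in 6 or more of the 16 other settings in which it could be tested.

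Of 21 tested members of the neuronal list 2 rose and 4 fell, a share called of 28.6% that is near the 23.8% of all entries. Their median log2 fold change of 0.08 had no stable sign: it lay between -0.14, after thinning to the shallowest library, and 0.22, without replicate 1 of 24 h. miR-132-3p, which is induced by CREB in rat neurons, had 175, 133 and 148 CPM at 3 d, against 96.5, 86.8 and 79.0 CPM at 24 h (0.77 ± 0.179, adjusted p = 0.0025, edgeR's quasi-likelihood test). miR-212, made from the same transcript, went otherwise: miR-212-3p, which shares the seed AACAGUC, did not pass the test at -0.24 ± 0.200 (adjusted p = 0.429, edgeR's quasi-likelihood test), and miR-212-5p fell by 1.22 ± 0.229 (8.97, 13.2 and 11.0 CPM at 3 d, against 26.4, 28.7 and 25.7 CPM at 24 h; adjusted p = 0.00027, edgeR's quasi-likelihood test). The 8.97 CPM of miR-212-5p in the shallow library of 3 d lies near the 6.73 CPM that 3 counts equal there. miR-344b-1-3p had 1475, 1131 and 1261 CPM at 3 d, against 906, 791 and 911 CPM at 24 h (0.56 ± 0.119, adjusted p = 0.000904, edgeR's quasi-likelihood test). miR-153-3p (-0.40), miR-137-3p (-0.46) and miR-138-5p (-0.32) fell with overlapping groups, and each kept its call in 9 or fewer of 18 other settings. miR-137-3p and miR-138-5p are named after their values were seen.

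In 6 of 76 hairpins with both arms tested, both arms were called, and in 4 of these the arms went opposite ways. A ratio of arms within a library does not depend on the scaling. Since these 4 were chosen by their called arms, their ratios are given as a description, with no test. Over all 76 hairpins the ratio did not overlap between 3 d and 24 h in 23 (30.3%). For miR-125a the log2 ratio of 5p to 3p counts was 4.56, 5.34 and 4.83 at 3 d, against 6.39, 6.32 and 6.46 at 24 h, a change of -1.48. The 3p arm itself had 139, 90.1 and 122 CPM at 3 d, against 64.6, 64.4 and 68.5 CPM at 24 h (0.80 ± 0.149, adjusted p = 0.000238, edgeR's quasi-likelihood test). For its cluster neighbour miR-99b the log2 ratio was 4.89, 5.21 and 4.60 at 3 d, against 5.68, 6.14 and 6.29 at 24 h, a change of -1.14. The rise of miR-99b-3p (0.38) was the less stable side, called in 7 of 18 other settings, and is named after its values were seen. For miR-151 the change was -0.79: miR-151-3p rose by 0.35 and miR-151-5p fell by 0.45. In miR-29b, a repressor of collagen genes, the change of 2.05 went the other way. miR-29b-5p had 11.2, 21.3 and 20.9 CPM at 3 d, against 8.24, 4.15 and 5.27 CPM at 24 h (1.66 ± 0.326, adjusted p = 0.000421, edgeR's quasi-likelihood test). miR-29b-3p, which comes from 2 hairpins, had 202, 248 and 312 CPM at 3 d, against 405, 276 and 367 CPM at 24 h, and its call (-0.43) was lost in 8 of 18 other settings. The 5p arm is listed for just 1 of these 2 hairpins, so this ratio is not that of a single hairpin. Both arms fell in miR-362 and both rose in miR-423. In 22 further hairpins 1 arm was called.

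**Figure D3:**
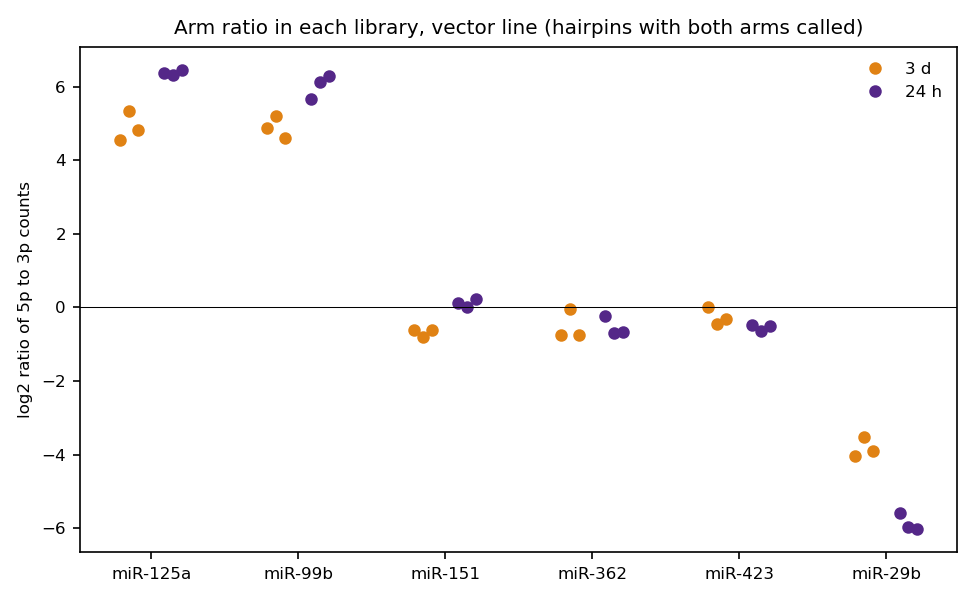
Log2 ratio of 5p to 3p counts in each of the 3 libraries of 3 d (orange) and of 24 h (purple), for the 6 hairpins with both arms called. The points of 3 d lie apart from those of 24 h in miR-125a, miR-99b, miR-151, miR-29b and miR-423, and overlap in miR-362. The ratio is lower at 3 d in the first 3 and higher in miR-29b and miR-423.

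Over whole libraries, 5p arms took 53.2%, 50.6% and 53.1% of counts at 3 d, against 55.8%, 57.1% and 53.9% at 24 h, a difference of -3.34 percentage points (exact two-sided permutation p = 0.1, n = 3 each). Without miR-375-3p, a setting chosen after seeing the data, the means were 63.9% at 3 d and 63.9% at 24 h (exact two-sided permutation p = 1, n = 3 each). Among the miRNAs that rose 20 are 3p and 12 are 5p arms, and among those that fell 12 are 3p and 17 are 5p arms, against 126 3p arms and 1 fewer 5p arms among all tested. The median GC content was 52.2% in the 29 that rose and have a sequence and 47.6% in the 27 that fell, against 47.8% in all 248 with a sequence, and the correlation of log2 fold change with GC content over these miRNAs was 0.12, a description across miRNAs of the same libraries.

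The 10 most abundant entries took 71.2% ± 0.89 of counts at 3 d and 73.0% ± 0.80 at 24 h (SD, n = 3 each), a difference of -1.81 percentage points with no overlap (exact two-sided permutation p = 0.1, the smallest that 3 against 3 allows). miR-27b-3p, the second, had 129301, 125367 and 133520 CPM at 3 d, against 160742, 163625 and 172270 CPM at 24 h, and fell by 0.36 ± 0.102 (adjusted p = 0.0106, edgeR's quasi-likelihood test). let-7f-5p had 86054, 60448 and 81232 CPM at 3 d, against 100537, 111789 and 85306 CPM at 24 h. These groups overlapped, and its call (-0.39 ± 0.128, adjusted p = 0.0291, edgeR's quasi-likelihood test) was lost in 4 of 18 other settings. let-7f-5p differs from let-7a-5p at 1 of 22 bases, and miR-27b-3p from miR-27a-3p at 1 of 21. Counts of each pair may thus be split by the assignment of reads. miR-10b-5p, in the Hoxd cluster, had 78266, 97759 and 98891 CPM at 3 d and 108306, 144669 and 106806 CPM at 24 h, and did not pass the test despite groups that did not overlap (-0.39 ± 0.178, adjusted p = 0.131, edgeR's quasi-likelihood test). miR-30a-5p (-0.19), miR-26a-5p (-0.17), let-7i-5p (-0.13) and miR-22-3p (-0.07) did not pass it either. Of the let-7 family, which promotes differentiation, 1 of 9 tested 5p arms was called, against 23.8% of all entries. The median of the 5p arms was -0.02.

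Of the other lists, the miR-23, miR-27 and miR-24 entries had 1 rise (miR-24-3p, 0.37) and 2 falls in 10 tested, against 23.8% called of all entries. Of the let-7 3p arms let-7e-3p rose (1.10, at 4.46 to 15.7 CPM) and miR-98-3p fell (-0.68) of 10 tested. In the p53-linked list 2 of 4 were called: miR-34a-5p (0.52) rose with overlapping groups and miR-192-5p fell. Of the miR-30 family 1 of 9, of the miR-130, miR-301, miR-148 and miR-152 families 1 of 10 (miR-130b-3p, 0.40), of the miR-26 family 0 of 3, of the miR-181 family 0 of 5 and of the miR-10 and miR-196 group 0 of 5 were called. The remaining called entries, miR-140-3p (0.42), miR-328a-3p (0.41), miR-361-3p (0.57) and miR-423-3p (0.32), all rose and are named after their values were seen.

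Markers of other cell types had 33 entries in the table, of which 19 had too few counts to be tested and 0 of the 14 tested were called, against 23.8% of all entries. Of the glial list 0 of 4, of the epithelial list 0 of 4, of the mesenchymal and endothelial list 0 of 4, of the muscle list 0 of 1 and of the blood cell list 0 of 1 tested members were called. The miR-219a entries of the glial list are also counted in the neuronal list. Summed over all its entries, tested or not, the mesenchymal and endothelial list had 788 to 1188 CPM at 3 d and 971 to 1449 CPM at 24 h, and the epithelial list 473 to 506 CPM at 3 d and 420.1 to 463 CPM at 24 h. The blood cell list summed to at most 3.04 CPM at 3 d and 6.23 CPM at 24 h, with 3 of its 7 entries at 0 in all 6 libraries, and the glial list to 307 to 426 CPM at 3 d and 372 to 512 CPM at 24 h. miR-375-3p, of the endocrine list, was the leading entry. By contrast, miR-7a-5p of the same list averaged just 2.06 CPM at 24 h and 5.64 CPM at 3 d, so the list as a whole was not abundant. miR-124-3p, the defining miRNA of mature neurons, had 0 counts in all 6 libraries.

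In the same time step of the α1ACT line 60 of 269 entries (22.3%) were called, 27 higher (10%) and 33 lower (12.3%). Of the 34 that rose in the vector line 34 had a positive log2 fold change in the α1ACT line and 25 were called there too, and of the 30 that fell 29 had a negative one and 21 were called there too. Over all 269 entries Pearson's r between the steps was 0.76, a description across miRNAs from 1 fit. The test of the vector step minus the α1ACT step called 0 entries (0%) in edgeR's quasi-likelihood test, with 10 at an unadjusted p under 0.05, and 0 in DESeq2 and in limma-voom. The smallest adjusted p was 1.00 in edgeR's quasi-likelihood test, so no entry was shown to differ between the lines, nor does this show that the steps were alike. The 5 smallest unadjusted p belonged to let-7d-3p (difference -0.64), miR-877 (-0.78), miR-500-3p (0.62), miR-100-5p (-0.74) and miR-29a-3p (0.40). For miR-100-5p the log2 fold change was -2.05 in the vector line and -1.31 in the α1ACT line, and for miR-877 it was -0.91 in the vector line and -0.13 in the α1ACT line. let-7f-5p, lower in the vector line, had a log2 fold change of 0.00 in the α1ACT line.

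**Figure D4:**
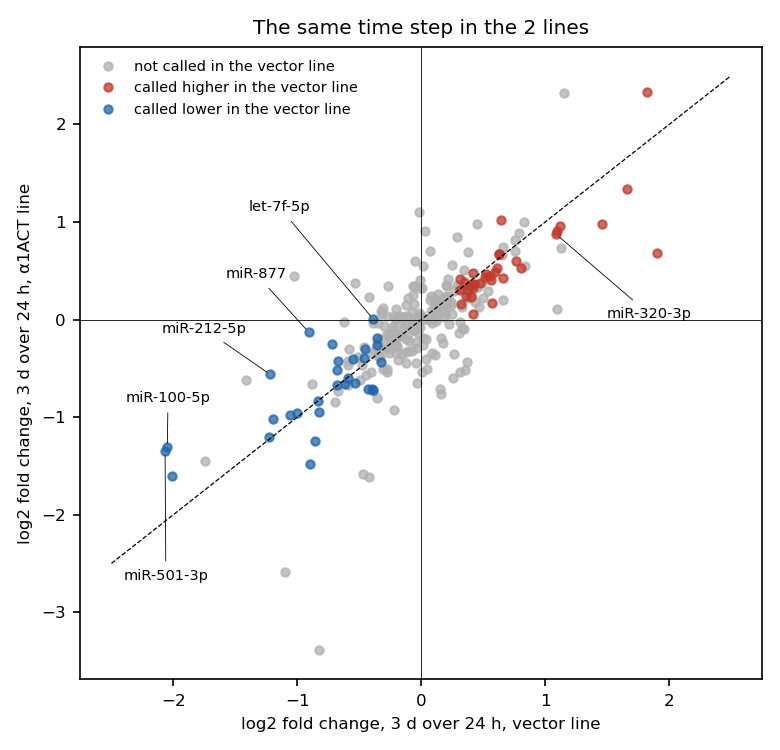
Log2 fold change of each tested entry, 3 d over 24 h, in the vector line (x axis) and in the α1ACT line (y axis), with the line of equal change dashed. The red points, which rose in the vector line, lie above 0 on the y axis, and of the blue points that fell all but let-7f-5p lie under 0.

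The samples of 6 h and 10 d show how the levels of 24 h and 3 d stand in the whole course of the vector line. miR-100-5p had 252 and 198 CPM at 6 h, averaged 218 CPM at 24 h and 54.4 CPM at 3 d (n = 3 each), and had 231, 122 and 232 CPM at 10 d, so its level at 3 d stood apart from the other 3 times. miR-351-5p averaged 4218, 4928, 2771 and 3367 CPM in the same order of times and stayed closer to its 3 d level at 10 d. miR-501-3p had 205 and 186 CPM at 6 h and averaged 140 CPM at 24 h, 33.6 CPM at 3 d and 73.3 CPM at 10 d. miR-320-3p averaged 353, 234, 499 and 416 CPM and miR-92a-3p 2299, 1730, 2677 and 1236 CPM in that order, so the fall of miR-92a-3p by 10 d went past its level at 24 h. miR-375-3p was highest at 3 d, with means of 142477 CPM at 6 h, 135710 CPM at 24 h, 180790 CPM at 3 d and 152003 CPM at 10 d. Of the 64 called entries 60 had at 3 d their highest or lowest mean of the 4 times, a count that the choice of called entries partly fixes and from which nothing is read; the count was 117 of 205 among entries not called. The second libraries of 6 h and of 10 d matched each other in place of their own names when the authors' 2 tables were compared, and without both the count was 57 of 64.

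**Figure D5:**
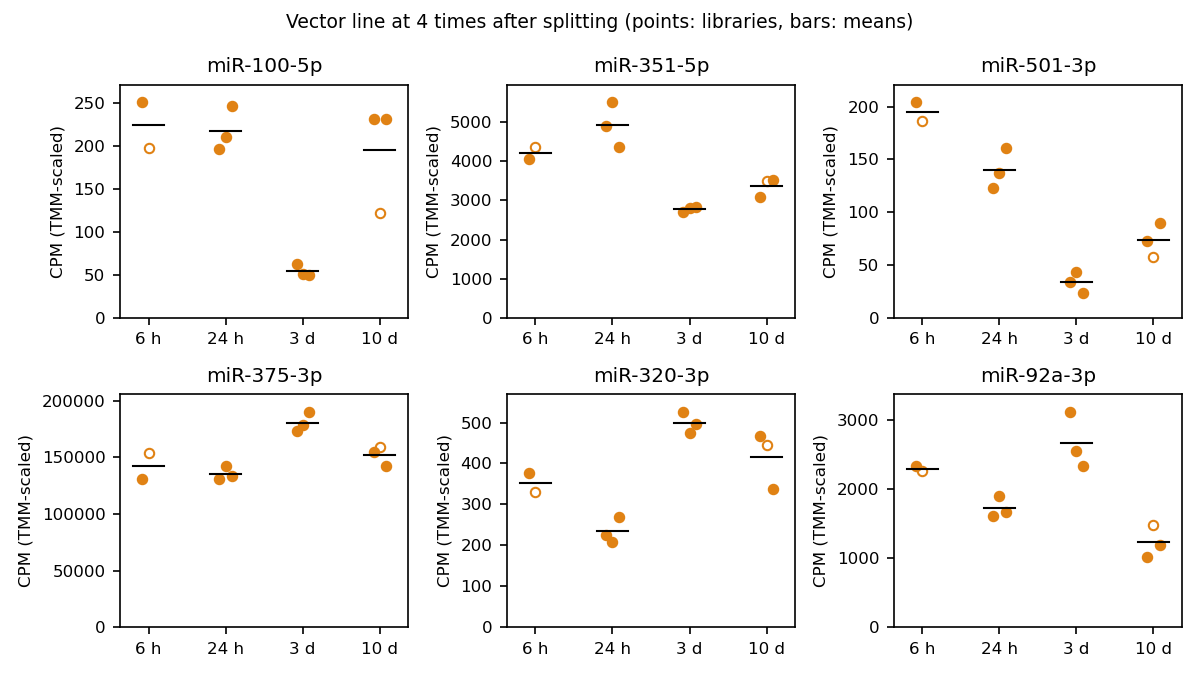
CPM in each library of the vector line for 6 miRNAs, by time after splitting from 6 h to 10 d, with bars at the means. Open points are the second libraries of 6 h and 10 d, whose names are in doubt, and miR-100-5p at 3 d stays under 63 CPM while no library of another time is under 122 CPM.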

How the data were processed

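Small RNA libraries were made with an Illumina TruSeq protocol from a miRNA-enriched fraction, per the labels' protocols. The values are whole-number read counts per mature miRNA, as the authors deposited them in 2 tables without normalization. Their names point to sRNAbench with single assignment (413 entries) and Chimira (627 entries). The submitters' processing notes name edgeR; the aligner, any version, the miRBase release and the build are not given in the sources read. Control columns were taken as vector and WT columns as α1ACT, which assumes that WT stands for the repeat of normal length; 12 columns of each table belong to no sample and were not used, and 1 sRNAbench entry without a name (0 counts, 0% of the total) was left out.

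For the sRNAbench counts edgeR 4.0.16 was run under R 4.3.3 (filterByExpr, TMM, 1 mean per group over 23 libraries, robust quasi-likelihood fit; common biological coefficient of variation 16.1%). Adjusted p-values are Benjamini-Hochberg values over 269 entries, with calls under 0.05. Single values per library were compared by exact permutation in scipy. The fit was tested on simulated data. The alternatives were the Chimira table (305 entries tested), 3 scalings, 2 filters, DESeq2 1.42.0, limma-voom (limma 3.58.1), a replicate block, a fit without the other groups, leaving out single libraries or the doubtful pair, and thinning to 448557 counts. The comparison and its 30 lists were chosen with earlier results of these data known. Named miRNAs were the 12 largest calls in each direction (mean CPM 10 or more), the 5 most abundant called, the 10 most abundant, up to 4 members of each list by smallest p, and the 5 smallest p of the difference between lines; miR-185-5p, uncalled relatives of called miRNAs and those marked in the text were named after their values were seen.

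Within each of the groups compared, no 2 libraries were duplicates (chi-square per degree of freedom 27.0 to 133). Other pairs of libraries were not checked for this. Counts are not independent molecules, and the limit that a count of 0 allows (3 counts) covers counting error only. Over 154 miRNAs, 21 of 23 libraries matched their own name in the Chimira table, among them all 6 compared. Sequences were matched by name to RefSeq tables (248 of 269), and hairpin neighbours were read from assembly GRCr8 without its coordinates.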

Additional observations from a re-analysis of the deposited data

How the results depend on the processing

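Over 18 other settings, the number of entries called lay between 44 and 68, against 64. All 64 kept their sign in every setting that tested them, and 15 of the 34 higher and 14 of the 30 lower were called in each such setting. Upper-quartile factors gave 22 higher and 46 lower, and moved the median log2 fold change of all entries to -0.14, against -0.04 with TMM. The fit of the 6 libraries alone called 46 of 252 entries tested, 21 higher and 25 lower. Leaving out 1 of the 6 libraries gave 44 to 59 called, 22 to 32 higher and 22 to 30 lower; the fewest higher, 22, came without vector 24 h replicate 1. The difference between the lines called 0 entries in each of these fits. The cause of these shifts was not tested. Among the named miRNAs signs reversed only in 4, which were not called. They were let-7d-3p (0.0354 with library totals, -0.20 to 0.26 when single libraries were left out), miR-182 (-0.24 to 0.0363 likewise), miR-22-3p (-0.16 to 0.0247 likewise) and miR-29a-3p (0.0216 with library totals, -0.15 to 0.11 likewise). The median of the neuronal list also had no stable sign. The same-number correlations of deviations were 0.02, 0.54 and 0.09, and not every library correlated best with its own number. With 3 libraries in each group these values cannot decide whether the replicate numbers pair the samples. A fit with the replicate number as a block gave 66 called, 34 higher and 32 lower. Depth limits entries near 6.73 CPM, which the shallow library of 3 d cannot resolve.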

Other observations

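The names let-7c-2-3p and let-7a-1-3p stand for 1 mature sequence in RefSeq. Each of the 6 libraries held counts under just 1 of these names and 0 under the other, so no fold change is given for either.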
